A study of Homo sapiens with 2 samples.

Results

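The zinc finger genes of human chromosome 19 were followed here in KASUMI-1, a line of acute myeloid leukaemia cells that carries the RUNX1-RUNX1T1 fusion. They were taken as all rows of the deposited gene table with a symbol made of ZNF, a number and at most a letter from A to D, a locus on chromosome 19, and no mention of a pseudogene in the description. This gave 248 of the 50868 genes in the table, of which 84 lay on the short arm (19p) and 164 on the long arm (19q). The cells carried either the lentivirus labelled USP6, named like the ubiquitin-specific protease, or the lentivirus labelled pccl, against which every ratio is taken. RNA from each was sequenced as 1 library, so the study holds 2 libraries, and both come from the same leukaemia line grown in the same medium. The series title concerns the stabilisation of RUNX1 fusion proteins by USP6, and the comparison sets the messages of the USP6 cells against those of the pccl cells. With 1 library per group, no difference had a replicate check and no test was made.

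The USP6 library held 12518795 counts over 18140 genes with a count, and the pccl library held 12306442 counts over 17880 genes. The mitochondrial genome took 45.6% of the counts in the USP6 library and 49.9% in the pccl library. The USP6 gene had 70 counts in the USP6 library and 8 in the pccl library, an 8.60-fold higher level (95% counting interval 4.13 to 20.7). Its level in FPKM (the count per unit of gene length and of library total) was under 1 in both. It was 0.340 FPKM in the USP6 library and 0.0396 FPKM in the pccl library. All 7 markers of leukaemic blasts, including RUNX1T1, KIT and MPO, reached 1 FPKM in at least 1 library. The summed level of these markers was 406 FPKM in the USP6 library and 241 FPKM in the pccl library. SPI1, MPO and CD33 had the higher level in the USP6 library, while KIT (40.0 FPKM in USP6, 99.3 FPKM in pccl), CD34 (4.19 FPKM in USP6, 12.6 FPKM in pccl), RUNX1T1 (2.63 FPKM in USP6, 3.30 FPKM in pccl) and PTPRC (1.21 FPKM in USP6, 1.71 FPKM in pccl) had the lower one. Among markers of other cells, KRT18, KRT19, COL1A2, DCN and CDH5 were at 0 in both libraries. The T cell list summed to 7.64 FPKM in the USP6 library and 1.55 FPKM in the pccl library, with 2 of its 4 genes, CD3E and CD2, reaching 1 FPKM in at least 1 library. The other T cell genes had the opposite order, CD8A with 4 counts in the USP6 library and 18 in the pccl library, and IL7R with 17 in the USP6 library and 28 in the pccl library. Of the B cell list 1 of 3 genes did so, with sums of 10.6 FPKM in the USP6 library and 2.68 FPKM in the pccl library. Of the epithelial list 1 of 4 genes did so, EPCAM, with 8.77 FPKM in the USP6 library and 17.3 FPKM in the pccl library. The erythroid markers HBB and HBA1, the 3 fibroblast markers and the 2 endothelial markers were all under 1 FPKM in both libraries. The part of these marker differences in the results below was not tested.

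Most of these genes encode proteins with a row of C2H2 zinc fingers, small folds in which a pair of cysteines and a pair of histidines hold a zinc ion, and which read DNA finger by finger. Many also carry a KRAB box near the start of the protein, which binds the corepressor TRIM28 and through it the histone methyltransferase SETDB1, HP1 proteins and the NuRD complex. KRAB zinc finger proteins are best known for silencing transposable elements, and their genes arose by repeated duplication, which left them in clusters of close relatives along chromosome 19. The gene clusters are themselves covered by the repressive histone H3 lysine 9 trimethylation that this machinery lays down. In acute myeloid leukaemia lines, SETDB1 is known to keep endogenous retroelements silent.

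The stretches that encode a finger follow a shared pattern from gene to gene, and 3 are shown. Each is the first finger of its gene that fits a pattern with the linker after it, so part of the likeness was set by this choice. Elsewhere the 3 differ at many bases, and they do not show how short reads were assigned. ZNF146, also called OZF, is made almost wholly of fingers and has no KRAB box. ZNF136 was the member with the highest ratio between the libraries, and ZNF93 is a KRAB protein that binds LINE-1 retrotransposons. Each stretch is the coding sequence of 1 finger and the linker that follows it, 5′ to 3′, from GENCODE release 29. The capitals mark the codons of the zinc-binding cysteines and histidines. They encode residues 74 to 99 of ZNF146, 198 to 223 of ZNF136 and 175 to 200 of ZNF93.
ZNF146: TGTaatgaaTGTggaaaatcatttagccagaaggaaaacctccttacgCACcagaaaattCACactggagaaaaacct
ZNF136: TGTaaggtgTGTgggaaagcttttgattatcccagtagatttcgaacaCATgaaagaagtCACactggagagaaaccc
ZNF93: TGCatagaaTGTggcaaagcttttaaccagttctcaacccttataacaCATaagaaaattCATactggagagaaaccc
Over the 247 members with a coding sequence in that release, the median was 12 fingers, with an interquartile range of 9 to 15 and a maximum of 36 in ZNF208. Of 3114 fingers found, 1633 (52.4%) ran straight into a conserved 5-residue linker. It was counted as threonine, glycine, glutamate or glutamine, lysine or arginine, and proline. The 3 stretches encode the form with glutamate and lysine. A match to the KRAB A-box pattern was found in 209 members and none in 38. The remaining member, ZNF56, is typed a pseudogene in that release, although its description in the deposited table does not say so.

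The genes were weakly expressed. Those with at least 50 counts summed over both libraries had a median of 0.516 FPKM in the USP6 library and 0.546 FPKM in the pccl library, against 2.14 FPKM (USP6) and 2.22 FPKM (pccl) for the other protein-coding genes with as many. In both libraries 63 members (25.4%) had no count, which allows each of them up to 3 counts per library, against 31.4% of the other protein-coding genes and 60.7% of all genes in the table. In both libraries 23 members reached 1 FPKM. At least 1 FPKM was seen for 36 members in the USP6 library and for 34 in the pccl library. All members together took 0.162% of the counts of the USP6 library and 0.133% of those of the pccl library. Of the 261 ZNF genes on other chromosomes, 47 were at 0 in both libraries and 73 had 1 FPKM or more in both. Total RNA of a culture was measured, so fewer cells with a message and less message per cell cannot be told apart.

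Along the chromosome, members were ordered by the start of their locus and a new cluster was begun at any gap over 1 Mb. This gave 9 clusters of at least 5 members, 4 on 19p and 5 on 19q, and left 11 members alone or in runs of fewer than 5. The share of members at 0 ranged widely between clusters. On 19q, the cluster from ZNF175 to ZNF331 (chr19:51571298-53580269) had 20 of 39 members at 0 in both libraries (51.3%), and the cluster next to the centromere on 19p, from ZNF101 to ZNF254 (chr19:19668796-24129961), had 15 of 38 (39.5%). In the cluster from ZNF557 to ZNF846 on 19p (chr19:7069444-9793180) 1 of 15 was at 0 in both. The small cluster from ZNF302 to ZNF792 on 19q (chr19:34677639-34964049) had counts so low that none of its 5 genes could be compared, and its most abundant gene, ZNF792, had 14 counts in the USP6 library and 11 in the pccl library.

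**Figure D1:**
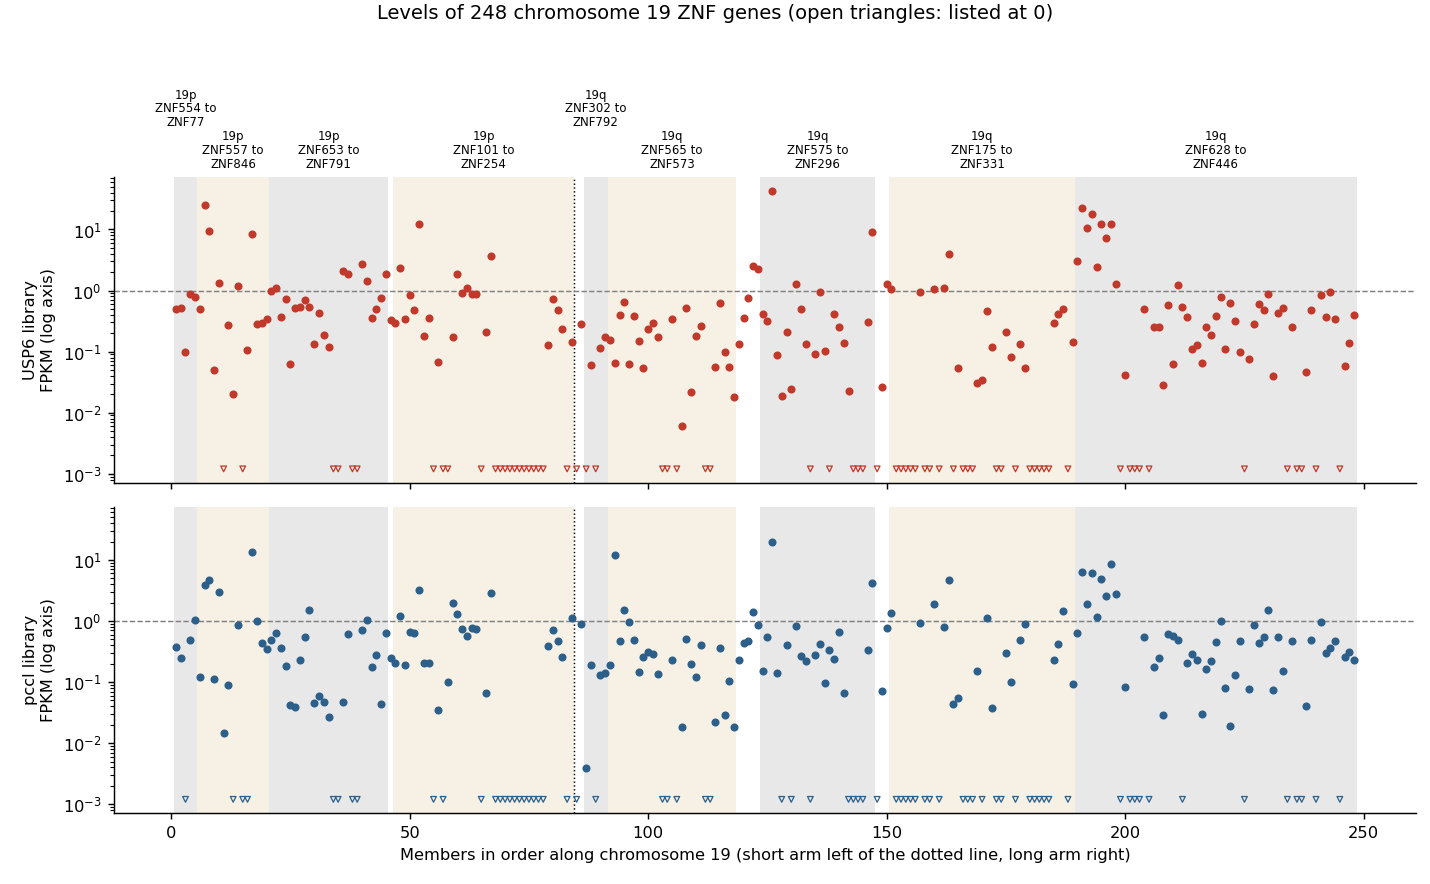
FPKM (log axis) of each of the 248 members in order along chromosome 19, with the USP6 library above and the pccl library below. Shaded bands are the 9 clusters, the dashed line marks 1 FPKM and open triangles mark the genes listed at 0. Most members lie under 1 FPKM in both libraries, and runs of triangles stand in the ZNF101 to ZNF254 and ZNF175 to ZNF331 clusters.

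The most abundant members were mostly proteins without a KRAB match. ZNF428 led, with 43.1 FPKM in the USP6 library and 19.9 FPKM in the pccl library. Next by the mean of both libraries came ZNF358, with 25.1 FPKM in the USP6 library and 3.83 FPKM in the pccl library, and ZNF579, with 22.2 FPKM in the USP6 library and 6.41 FPKM in the pccl library. ZNF865 had 17.9 FPKM in the USP6 library and 6.10 FPKM in the pccl library. ZNF121 had the opposite order, at 8.48 FPKM in the USP6 library and 13.6 FPKM in the pccl library. Of the 10 most abundant members, only ZNF121 had the lower level in the USP6 library. With log2 ratios of USP6 over pccl centred on their trend with transcript GC content over the whole table, ZNF121 stood at -0.18, and ZNF787 at -0.72 and ZNF296 at -0.008 were also below 0. The others of the 10 were ZNF787 (12.4 FPKM in USP6, 8.66 FPKM in pccl), ZNF580 (12.5 FPKM in USP6, 4.95 FPKM in pccl), ZNF93 (12.4 FPKM in USP6, 3.24 FPKM in pccl), ZNF414 (9.33 FPKM in USP6, 4.75 FPKM in pccl) and ZNF296 (9.26 FPKM in USP6, 4.26 FPKM in pccl). ZNF93 was the only member of the 10 with a KRAB match.

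To compare the libraries, a member was called measured with at least 50 counts summed over both, which held for 125 of 248 (50.4%). Its ratio was the FPKM in the USP6 library over that in the pccl library, and it was called higher at a ratio of 2 or more and lower at 0.5 or less. By this rule 32 members (25.6%) were higher and 20 were lower in the USP6 library. Over all 11399 measured genes of the table, 20.9% were higher and 20.4% lower by the same rule, so the members' shares lie near the background. The median log2 ratio was 0.32 for the measured members and 0.03 for all measured genes. At 4-fold, 10 members were higher and 8 lower, against 5.65% and 5.94% of all measured genes. At 1.5-fold, 47 were higher and 28 lower, against 31.9% and 30.7% of all measured genes. The 177 measured ZNF genes of other chromosomes had a median log2 ratio of 0.31, with 44 higher (24.9%) and 28 lower (15.8%). The other protein-coding genes of chromosome 19 had a median of 0.70 over 648 measured genes, of which 247 (38.1%) were higher and 39 (6.02%) lower. These genes are rich in GC, at a median of 60.7%, and with ratios centred on the trend with GC their median was -0.04, with 86 higher and 87 lower. The 95% intervals of all 32 higher and all 20 lower members left out a ratio of 1. The minimum of 50 counts and the 2-fold limit fix that outcome in advance, so it adds nothing to the calls. Of the other 73 members, 28 had an interval that left out 1. These exact conditional binomial (Clopper-Pearson) intervals cover counting error only, and not the spread between cultures or preparations.

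The lowest ratios belonged to genes of several clusters. ZNF146 (ENSG00000167635, chr19:36214602-36238774) had 7 counts (0.0653 FPKM) in the USP6 library and 1266 counts (12.02 FPKM) in the pccl library. It was 184-fold lower in the USP6 library (89.0 to 459), and in the pccl library it was among the most abundant members. The libraries thus stood far apart for a gene whose neighbour on the other strand, ZNF565, had 13 counts in the USP6 library and 16 in the pccl library. ZNF160 had 14 counts in the USP6 library and 230 in the pccl library, 16.7-fold lower (9.76 to 31.1). ZNF85 had 26 counts in the USP6 library and 291 in the pccl library, 11.4-fold lower (7.61 to 17.7), and its cluster mate ZNF254 had 22 in the USP6 library and 169 in the pccl library, 7.81-fold lower (5.00 to 12.8). All 4 had far more counts in the pccl library than in the USP6 library.

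ZNF529 had 11 counts in the USP6 library and 166 in the pccl library, 15.4-fold lower (8.36 to 31.3). Its locus overlaps an antisense gene, ZNF529-AS1, which went the other way with 75 counts in the USP6 library and 15 in the pccl library. Whether the counting used strand was not given, so reads of the pair cannot be told apart. Lower as well were ZNF875 (7 counts in the USP6 library and 62 in the pccl library, 9.01-fold), ZNF304 (6 in USP6 and 53 in pccl, 8.99-fold), ZNF551 (9 in USP6 and 41 in pccl, 4.63-fold), ZNF816 (12 in USP6 and 43 in pccl, 3.65-fold) and ZNF561 (60 in USP6 and 208 in pccl, 3.53-fold). Of these 10 lowest members, 9 carry a KRAB match, and ZNF146 does not. Such a match is carried by 95 of all 125 measured members. Lower members made up 15.8% of the measured members with a match and 16.7% of those without.

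The highest ratio was that of ZNF136 (ENSG00000196646, chr19:12163064-12189881), a KRAB protein with 13 fingers. It had 224 counts (2.11 FPKM) in the USP6 library and 5 counts (0.0480 FPKM) in the pccl library, 44.0-fold higher (18.6 to 137). ZNF134 had 66 counts in the USP6 library and 2 in the pccl library, a ratio of 32.4 with an interval of 8.63 to 273. ZNF548 had 74 counts in the USP6 library and 0 in the pccl library. Taken against a floor of 3 counts in that library, its ratio was 24.2, and at least 19.2 with the counting error of its 74 counts. These genes were close to silent in the pccl library and modestly expressed in the USP6 library, under 3 FPKM.

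ZNF490 had 54 counts in the USP6 library and 3 in the pccl library, a ratio of 17.7 with an interval of 5.74 to 88.5. ZNF440 had 53 counts in the USP6 library and 4 in the pccl library, 13.0-fold higher (4.80 to 49.6), and ZNF433 had 45 in the USP6 library and 6 in the pccl library, 7.37-fold higher (3.14 to 21.1). Overlapping rows differed between the libraries too. AC003002.2, on the strand of ZNF548, had 0 counts in the USP6 library and 16 in the pccl library, and AC010422.6, on the strand of ZNF490, had 0 in the USP6 library and 41 in the pccl library. ZNF490 also overlaps ZNF791 on the other strand, another higher member, with 281 counts in the USP6 library and 94 in the pccl library. ZNF433-AS1, antisense to ZNF433, had 232 counts in the USP6 library and 163 in the pccl library. The part of such shared reads in these ratios was not tested.

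Among the 10 highest were also well-covered genes without a KRAB match. ZNF358 had 1396 counts in the USP6 library and 209 in the pccl library, 6.57-fold higher (5.67 to 7.63). ZNF524 had 379 counts in the USP6 library and 67 in the pccl library, 5.56-fold higher (4.28 to 7.32), and shares its locus with FIZ1 on the other strand, which had 427 counts in the USP6 library and 190 in the pccl library. ZNF628 was 4.77-fold higher (3.59 to 6.42), with 286 counts in the USP6 library and 59 in the pccl library. The transcripts of these 3 genes are rich in GC, at 69.1% for ZNF358, 64.9% for ZNF524 and 70.4% for ZNF628. Centred on the trend with GC, the log2 ratio went from 2.7 to 1.5 for ZNF358 and from 2.5 to 1.5 for ZNF524. That of ZNF628 went from 2.3 to 1.01. The KRAB gene ZNF557 completed the 10 at 4.20-fold (2.15 to 8.98), with 47 counts in the USP6 library and 11 in the pccl library.

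By arm, 15 of 45 measured members were higher (33.3%) and 5 lower (11.1%) on 19p, with a median log2 ratio of 0.47. On 19q, 17 of 80 were higher (21.25%) and 15 lower (18.75%), and the median was -0.03. Over all measured genes 20.9% were higher and 20.4% lower. The medians of the clusters with at least 5 measured members ran from 1.57 for ZNF653 to ZNF791 on 19p to -0.38 for ZNF175 to ZNF331 on 19q. Higher and lower members occurred together in 5 of the 9 clusters.

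**Figure D2:**
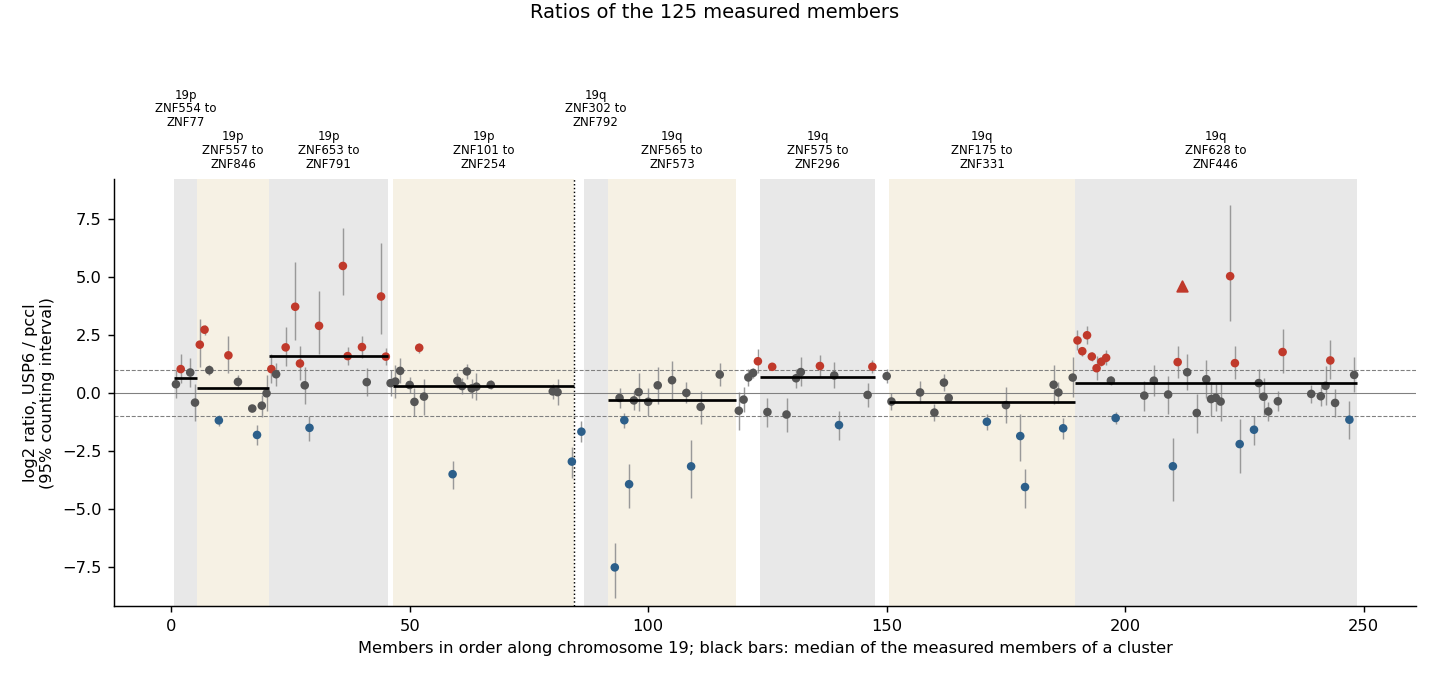
log2 ratio (USP6 over pccl) of the 125 measured members in order along chromosome 19, with the 95% counting interval as a line and the 2-fold limits dashed. Red points are higher, blue points lower and grey points between, the triangle is ZNF548 set against the floor of 3 counts, and black bars are cluster medians. The bar of the ZNF653 to ZNF791 cluster, at 1.57, stands above the others.

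The cluster from ZNF653 to ZNF791 (chr19:11483427-12640098) held most of the high ratios of 19p. Of its 25 members 14 were measured, of which 10 were higher and 1 was lower, and 13 of the 14 had a log2 ratio above 0. Its members summed to 1626 counts in the USP6 library and 614 in the pccl library, a ratio of 2.60 (2.37 to 2.86), and of 2.49 (2.26 to 2.75) without its most abundant gene, ZNF799. ZNF799 had 2.74 FPKM in the USP6 library and 0.701 FPKM in the pccl library, 3.91-fold higher (2.83 to 5.51). Beside ZNF136, ZNF490, ZNF440 and ZNF433, described above, the higher genes were ZNF44 (249 counts in the USP6 library and 82 in the pccl library, 2.99-fold), ZNF791 (281 in USP6 and 94 in pccl, 2.94-fold), ZNF441 (67 in USP6 and 17 in pccl, 3.87-fold), ZNF439 (56 in USP6 and 23 in pccl, 2.39-fold) and ZNF653 (70 in USP6 and 34 in pccl, 2.02-fold). ZNF653 shares its locus and strand with ECSIT, which had 537 counts in the USP6 library and 173 in the pccl library. The exception was ZNF700, in the middle of the cluster, with 41 counts in the USP6 library and 115 in the pccl library, 2.85-fold lower (1.98 to 4.18). ZNF700 and these last 5 higher genes were named after their values were seen. ZNF20, ZNF625, ZNF563 and ZNF442 were at 0 in both libraries, and the 7 members with some counts but under the minimum all had more counts in the USP6 library.

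This run of genes was taken up because its values stood out, so the counts describe it and test nothing. Outside it, the measured members had a median log2 ratio of 0.06, with 22 of 111 higher (19.8%) and 19 lower (17.1%). Over all measured genes 20.9% were higher and 20.4% lower, so these shares lie near the background. The genes of other names that lie between its members gave little to set beside it, as 2 of 7 were measured, with a median of 1.01. Its genes are poor in GC, at a median of 42.8%, in a range where the other measured genes of the table had a median log2 ratio of -0.41.

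**Figure D3:**
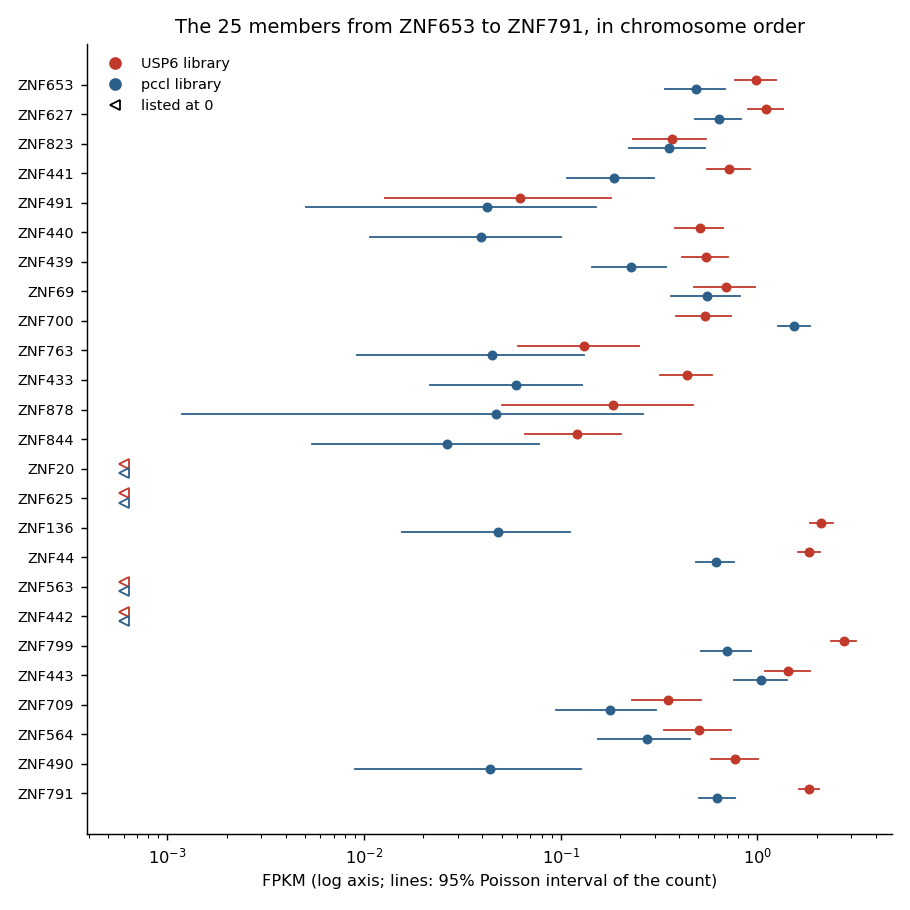
FPKM (log axis) of the 25 members from ZNF653 to ZNF791 in chromosome order, with the USP6 library in red above the pccl library in blue and the 95% Poisson interval of each count as a line. Open triangles mark genes listed at 0 in that library. ZNF136, ZNF490, ZNF440 and ZNF433 have intervals far apart, and ZNF700 is the gene with a clear order the other way.

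Promoters of the cluster are shown because its members share letters there while their ratios differ. The sequences are the 250 bases upstream of the RefSeq start site, 5′ to 3′ on the strand of the gene, in GRCh38.p14. Capitals mark the CCAAT box (CCAAT) and the GC box (GGGCGG), each on either strand. ZNF136 (chr19:12162846-12163095, plus strand), ZNF440 (chr19:11814023-11814272, plus) and ZNF490 (chr19:12610814-12611063, minus) were higher, and ZNF700 (chr19:11924857-11925106, plus) was lower. The ZNF490 window lies inside the deposited locus of that gene (chr19:12577961-12640098) and not upstream of it. It also holds the deposited start of the higher member ZNF791 (12610918, plus). ZNF146 (chr19:36214856-36215105, plus), the lowest member, lies outside the cluster and has neither motif in this window.
ZNF136: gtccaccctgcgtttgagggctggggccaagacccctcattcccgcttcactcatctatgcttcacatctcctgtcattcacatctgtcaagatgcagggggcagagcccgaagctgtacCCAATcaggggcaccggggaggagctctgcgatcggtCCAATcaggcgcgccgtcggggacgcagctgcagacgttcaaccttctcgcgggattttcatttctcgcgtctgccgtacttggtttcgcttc
ZNF440: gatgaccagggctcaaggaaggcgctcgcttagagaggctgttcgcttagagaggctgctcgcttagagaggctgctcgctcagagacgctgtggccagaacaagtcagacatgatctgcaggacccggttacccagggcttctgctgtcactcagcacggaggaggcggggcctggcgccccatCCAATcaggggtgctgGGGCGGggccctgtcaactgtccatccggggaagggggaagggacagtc
ZNF490: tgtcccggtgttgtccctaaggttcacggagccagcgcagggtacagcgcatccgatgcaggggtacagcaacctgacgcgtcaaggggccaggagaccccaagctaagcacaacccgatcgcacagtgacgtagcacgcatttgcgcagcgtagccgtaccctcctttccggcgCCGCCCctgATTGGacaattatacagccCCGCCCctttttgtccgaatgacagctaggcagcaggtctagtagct
ZNF700: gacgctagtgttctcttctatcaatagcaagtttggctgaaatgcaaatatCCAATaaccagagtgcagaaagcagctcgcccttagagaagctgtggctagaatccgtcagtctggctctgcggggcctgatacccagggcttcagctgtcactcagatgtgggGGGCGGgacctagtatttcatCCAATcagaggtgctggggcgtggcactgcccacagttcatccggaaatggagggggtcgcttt
ZNF146: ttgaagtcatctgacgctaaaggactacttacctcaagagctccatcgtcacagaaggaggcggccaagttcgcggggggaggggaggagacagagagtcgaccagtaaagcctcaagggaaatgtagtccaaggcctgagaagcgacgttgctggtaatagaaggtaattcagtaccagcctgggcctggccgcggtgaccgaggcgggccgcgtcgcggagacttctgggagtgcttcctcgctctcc
ZNF136 has 2 CCAAT boxes and 0 GC boxes, ZNF440 has 1 of each, ZNF490 has 1 CCAAT box and 2 GC boxes, and ZNF700 has 2 CCAAT boxes and 1 GC box. The lower gene ZNF700 thus holds both motifs, as do the higher genes ZNF440 and ZNF490 of the same cluster.

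RefSeq promoters were matched for 216 of the 248 members. In the 250 bases before the start, a CCAAT box was present in 110 (50.9%), against 34.5% of the promoters of 15841 protein-coding genes, and a GC box in 140 (64.8%), against 56.0%. The ETS core CCGGAA was found in 88 (40.7%), against 19.3%. The TATA box TATAAA was found in 4 (1.85%), against 9.24%, and the RUNX motif TGTGGT in 20 (9.26%), against 8.89%. Both strands were searched and none of these strings contains another. Of the 24 matched promoters in the ZNF653 to ZNF791 cluster, 22 (91.7%) had a CCAAT box, 23 (95.8%) a GC box and 4 an ETS core. A CCAAT box was held by 16 of the 28 matched higher members and by 12 of the 20 lower ones. A GC box was present in 23 of 28 higher members and in 10 of 20 lower ones, and the RUNX motif in 1 of each. These matches describe letters in a window and not binding.

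The other clusters were mixed. From ZNF565 to ZNF573 on 19q (chr19:36182060-37817300), 4 of 13 measured members were lower and none higher, with a median log2 ratio of -0.33. Its members summed to 784 counts in the USP6 library and 2428 in the pccl library, a ratio of 0.317, and ZNF146 supplied much of that, since the ratio without it was 0.657 (0.599 to 0.720). From ZNF175 to ZNF331, 4 of 13 were lower and none higher. Its most abundant member, ZNF480, had 3.96 FPKM in the USP6 library and 4.63 FPKM in the pccl library, and without it the summed counts had a ratio of 0.607 (0.557 to 0.661), against 0.694 with it. From ZNF101 to ZNF254, 1 of 16 was higher and 2 were lower, with a median of 0.28. The higher gene was ZNF93, which had 938 counts in the USP6 library and 241 in the pccl library, 3.83-fold higher (3.32 to 4.43), and without it the summed counts of the cluster had a ratio of 0.998 (0.937 to 1.06).

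On the end of 19q, the cluster from ZNF628 to ZNF446 (chr19:55476332-58481230) had 13 higher and 5 lower members among 37 measured. It divides in 2 when cut at gaps of 0.5 Mb. From ZNF628 to ZNF835, 7 of 10 measured members were higher and 1 was lower, with a median log2 ratio of 1.42, which was 0.41 when centred on the trend with GC. The median transcript GC content there was 65.4%, and 6 of its 16 members have a KRAB match. From ZNF264 to ZNF446, 6 of 27 were higher and 4 lower, the median was -0.08 (0.12 when centred) and the GC content 45.6%, and 38 of its 43 members have a KRAB match. The cluster from ZNF575 to ZNF296 (chr19:43525497-45076588) had 3 higher and 1 lower member among 10, and that from ZNF557 to ZNF846 had 3 higher and 2 lower among 10. The short cluster from ZNF554 to ZNF77 (chr19:2819874-2944971) had 1 higher member among 4, and ZNF77, its most abundant gene, had 0.783 FPKM in the USP6 library and 1.05 FPKM in the pccl library.

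KRAB and other members differed in level and in base composition. Of the 209 members with a KRAB match, 9 reached 1 FPKM in both libraries and 59 were at 0 in both. Of the 38 without a match, 14 reached 1 FPKM in both and 4 were at 0. The KRAB members summed to 83.8 FPKM in the USP6 library and 70.9 FPKM in the pccl library, and the others to 198 FPKM in the USP6 library and 104 FPKM in the pccl library. Among measured KRAB members, 18 of 95 were higher and 15 lower, at a median log2 ratio of 0.06. Among the others, 14 of 30 were higher and 5 lower, and the median was 0.91. Outside the ZNF653 to ZNF791 cluster, set aside after its values were seen, 9 of 82 measured KRAB members were higher and 14 lower. The median of these 82 was -0.016. The median transcript GC content was 42.3% for the measured KRAB members and 61.1% for the others, so the KRAB box and GC content cannot be told apart here by these counts alone.

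Over the measured genes of the table that are not members, the ratio followed transcript GC content, with a Spearman rho of 0.41 across 11240 genes, which are not independent and share the same 2 libraries. Across the 125 measured members rho was 0.25. Across the 30 without a KRAB match it was 0.61, and across the 95 with a match -0.01. In the GC-poorest of 5 classes, under 41.0% GC, the members had a median log2 ratio of 0.04 and the other genes -0.55. In the next class, 41.0 to 45.8%, the medians were 0.41 for the members and -0.41 for the other genes. From 45.8 to 51.9% both medians were -0.16, with 18 measured members. From 51.9 to 58.5% the order was the other way, at -0.05 for 5 measured members and 0.32 for the other genes. In the GC-richest class, above 58.5%, they were 1.12 for the members and 0.86 for the other genes. After centring each ratio on the trend with GC over all measured genes, 33 of 125 members were higher and 17 lower at 2-fold. Their median was 0.37. Of all genes, 17.1% were higher and 17.5% lower on that scale. The 177 measured ZNF genes of other chromosomes also had a centred median above 0, at 0.23, with 38 higher and 22 lower. On the centred scale the KRAB members had a median of 0.57 and the others 0.14, so the order of these groups turned round. Of the 95 KRAB members 29 were then higher and 14 lower, and of the 30 others 4 were higher and 3 lower. Outside the ZNF653 to ZNF791 cluster the centred median of the KRAB members was 0.33, with 19 of 82 higher and 13 lower. The median of the ZNF653 to ZNF791 cluster became 1.97, that of ZNF565 to ZNF573 turned to 0.12, that of ZNF175 to ZNF331 became -0.03 and that of 19q turned to 0.14. From ZNF628 to ZNF446, 8 members were then higher and 5 lower, and from ZNF101 to ZNF254, 4 were higher and 2 lower. Finger number showed little relation to the ratio, with a rho of -0.08 across the 125 members.

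**Figure D4:**
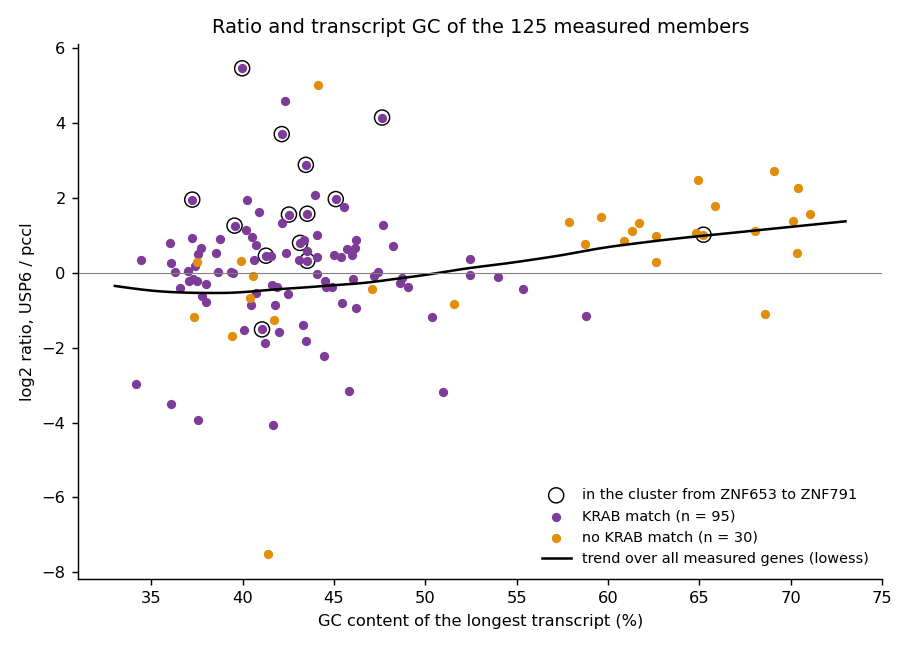
log2 ratio (USP6 over pccl) of the 125 measured members against the GC content of the longest transcript, with KRAB members in purple and the others in orange. Circles mark the cluster from ZNF653 to ZNF791 and the line is the lowess trend over all measured genes. Members without a KRAB match rise with GC near the line, and most circled genes lie above it at low GC.

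Of the 9 measured members with a listed role, 2 were higher, 1 was lower and 6 lay between the 2-fold limits. The lower one was ZNF146, given above. ZNF91, which represses SVA retrotransposons, had 163 counts in the USP6 library and 154 in the pccl library, a ratio of 1.04 (0.830 to 1.31). ZNF93, which represses LINE-1 elements, was 3.83-fold higher, as given above. ZNF274, which brings SETDB1 and TRIM28 to the ends of zinc finger genes, had 111 counts in the USP6 library and 113 in the pccl library, a ratio of 0.966 (0.736 to 1.27). Its level thus differed by less than counting error.

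ZNF224, a repressor of the aldolase A gene and a partner of WT1, had 122 counts in the USP6 library and 54 in the pccl library, 2.22-fold higher (1.60 to 3.12). ZNF473 (ZFP100), which acts in the processing of histone messages, had 232 counts in the USP6 library and 139 in the pccl library, a ratio of 1.64 (1.32 to 2.04), and overlaps VRK3 on the other strand. ZNF675, an inhibitor of TRAF6 signalling, had 60 counts in the USP6 library and 58 in the pccl library, and ZNF382, a KRAB repressor, had 97 in the USP6 library and 120 in the pccl library. ZNF331, an imprinted gene rearranged in thyroid adenomas, had 32 counts in the USP6 library and 20 in the pccl library, with an interval of 0.872 to 2.90 around a ratio of 1.57. ZNF350 (ZBRK1) had no count in either library.

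The genes that KRAB proteins work through were all measured. Over 4 lists with 35 genes, 3 (8.57%) were higher and 9 (25.7%) were lower, against 20.9% and 20.4% of all measured genes, and the median log2 ratio was -0.08, against 0.03 over all measured genes. After GC centring 3 were higher and 6 lower, against 17.1% and 17.5%, and the median was -0.34. TRIM28, the KRAB corepressor itself, had 2374 counts (21.6 FPKM) in the USP6 library and 2196 counts (20.4 FPKM) in the pccl library, a ratio of 1.06 (1.002 to 1.127). Its log2 ratio of 0.09 became -0.82 after GC centring. SETDB1, the methyltransferase it recruits, had 2.64 FPKM in the USP6 library and 1.04 FPKM in the pccl library, 2.54-fold higher (2.10 to 3.08). ATF7IP, which binds and stabilises SETDB1, had 3.45 FPKM in the USP6 library and 0.463 FPKM in the pccl library, 7.44-fold higher (6.36 to 8.76). The core list of 12 genes had 2 higher and 5 lower members. SETDB1 and ATF7IP were the 2 higher ones, also after GC centring.

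Among the 5 lower genes of the core list, CBX1, an HP1 protein that reads H3 lysine 9 methylation, had 116 counts in the USP6 library and 683 in the pccl library, 5.99-fold lower (4.91 to 7.36), and CBX3, another HP1 protein, had 223 in the USP6 library and 1040 in the pccl library, 4.74-fold lower (4.10 to 5.51). The chromatin remodeller ATRX was 2.22-fold lower (1.88 to 2.62). The H3 lysine 9 methyltransferases SUV39H1 and SUV39H2 were 2.32-fold (1.43 to 3.87) and 2.33-fold lower (1.67 to 3.29). Methyltransferases of the same residue in this list also went the other way, since beside SETDB1 EHMT1 had a ratio of 1.69 (1.44 to 1.99) and EHMT2 of 1.81 (1.67 to 1.97). After GC centring ATRX (-0.62) and SUV39H2 (-0.75) were no longer past 2-fold. On that scale the log2 ratios of EHMT1 and EHMT2 were 0.30 and 0.11, so little of their opposite direction remained.

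In the list of the HUSH silencing complex and its partners, 1 of 6 genes was higher and 2 were lower. MORC2, an ATPase that acts with HUSH, had 2077 counts in the USP6 library and 393 in the pccl library, 5.20-fold higher (4.66 to 5.80). TASOR, a core subunit, was 2.21-fold lower (2.03 to 2.40), and SMARCAD1, a chromatin remodeller that binds TRIM28, had 19 counts in the USP6 library and 271 in the pccl library, 14.5-fold lower (9.11 to 24.5). In NuRD, 1 of 13 genes was lower and none higher, and it was RBBP7 at 2.47-fold (2.07 to 2.96). Among 4 DNA methylation genes, UHRF1, which reads hemimethylated DNA, had 26 counts in the USP6 library and 315 in the pccl library, 12.3-fold lower (8.25 to 19.2), and the other 3 were within 2-fold. After GC centring TASOR (-0.63) and RBBP7 (-0.98) were no longer past 2-fold, and DNMT3A, at -1.19, was.

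**Figure D5:**
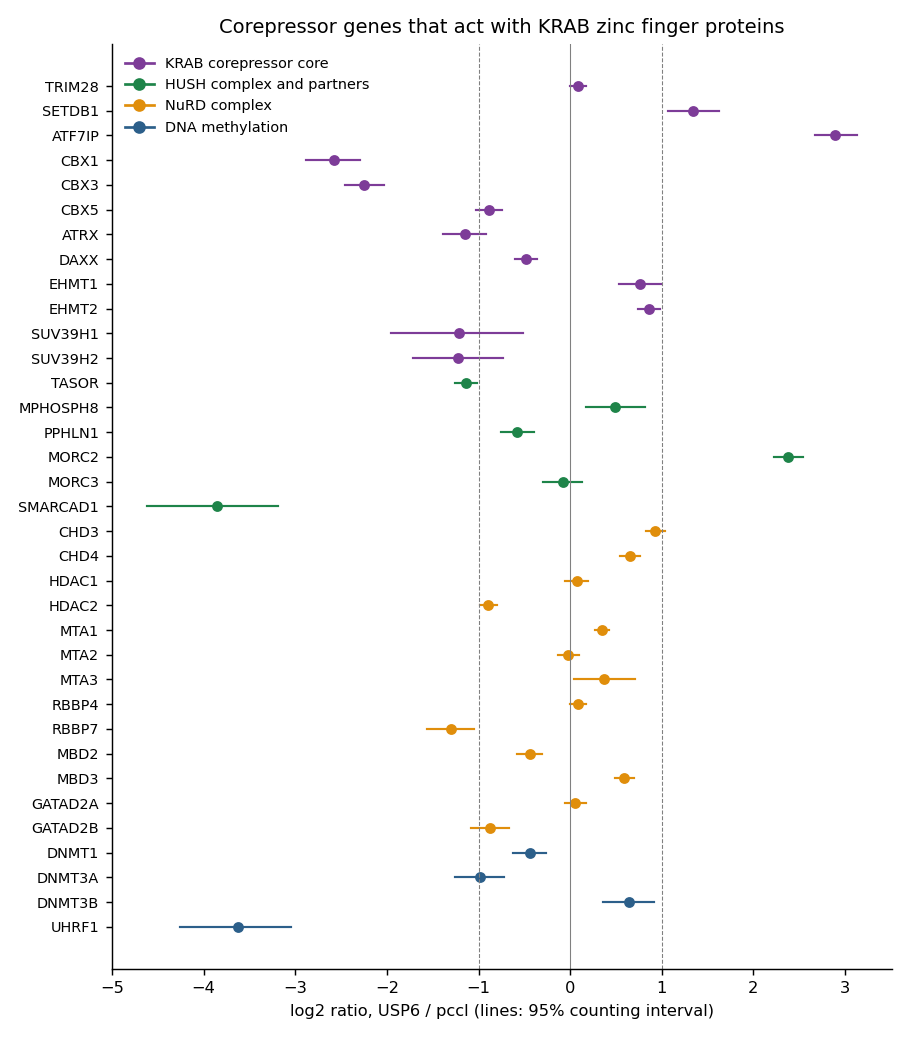
log2 ratio (USP6 over pccl) of the 35 corepressor genes, with the 95% counting interval as a line, colours for the 4 lists and dashed lines at the 2-fold limits. ATF7IP and MORC2 lie farthest to the right and SMARCAD1 and UHRF1 farthest to the left. TRIM28 lies near 0 on this scale, which is not centred on GC.

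Assignment of reads limits all of these values. The members include close relatives, and how reads that match several of them were counted was not given, so the split between neighbours of a cluster is uncertain. The loci of 72 members overlap another gene row with at least 10% of their counts, among them the abundant ZNF580, which shares its locus with ZNF581 and CCDC106 on the same strand. Without them, 22 of 89 measured members were higher and 15 lower, and the median log2 ratio was 0.34.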

How the data were processed

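RNA from KASUMI-1 cells was sequenced as 1 library per lentivirus, USP6 or pccl, and the labels name the group of each. The authors deposited whole-number read counts and FPKM values per gene. Tools listed in the submitters' processing notes are HISAT2 2.0.4, StringTie 1.3.3b and edgeR, with no roles. What build, annotation, strandedness and treatment of multi-mapped reads were used is not given in the sources used here. In all 16030 genes counted in both libraries, the FPKM values deposited by the authors were the count divided by the column total and by a length common to both columns (within 0.1%), so a ratio of FPKM is a ratio of count shares that include the mitochondrial genome. Loci are printed as the deposited table gives them. All 248 identifiers were found in GENCODE release 29, 231 with the identical locus, and transcript GC comes from the longest transcript of each gene there. Finger counts (C, 2 to 4 residues, C, 12 residues, H, 3 to 5 residues, H) and KRAB matches come from the longest coding sequence of each gene, translated. That sequence can belong to another transcript, and RefSeq proteins had been planned. Promoters come from RefSeq (GRCh38.p14).

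A fit with 1 library per group leaves 0 residual degrees of freedom, and differences are described without a test. Measured genes had at least 50 counts summed, and a count of 0 was set to 3 for a ratio. Ratios carry 95% conditional binomial (Clopper-Pearson) intervals, and FPKM in 1 plot Poisson intervals. Clusters were cut at gaps over 1 Mb, and the arms at 26 Mb. GC centring used lowess (span 0.3). Named were the 10 lowest, 10 highest and 10 most abundant members, the most abundant of each cluster, measured members with a listed role and, of the corepressor lists, TRIM28, SETDB1 and genes past 2-fold. ZNF350, ZNF565, ZNF208, ZNF56, EHMT1, EHMT2, DNMT3A and the other genes of the ZNF653 to ZNF791 cluster were named after their values were seen. The members and lists were chosen with earlier results of these data known. One gene of the planned marker lists is not reported here. The steps were tested on simulated data. Alternatives covered count and FPKM minima, pseudocounts, scaling (edgeR 4.0.16 for trimmed means), GC, overlaps, fold limits and cluster gaps. Versions were R 4.3.3, matplotlib 3.10.9, Biopython 1.88, pandas 2.3.3, Python 3.11.15, statsmodels 0.14.6, NumPy 2.4.6 and SciPy 1.17.1.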

Additional observations from a re-analysis of the deposited data

How the results depend on the processing

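No paired analysis was possible because each group is 1 library. Counts of 20 lower and 32 higher members and a median log2 ratio of 0.32 stood in the main setting. The median was above 0 in every alternative run, and the more numerous direction was higher in each. A minimum of 20 counts gave a median of 0.22, 200 counts gave 10 lower, 14 higher and 0.45, and no minimum gave 31 lower and 0.28. A pseudocount of 1 FPKM left 2 lower and 11 higher members and a median of 0.090, and with 0.1 FPKM the median was 0.26. Asking 1 FPKM of the higher library gave 10 lower, 17 higher and 0.62, and asking it of the mean gave 6 lower, 16 higher and 0.85. Nuclear depth gave a median of 0.20, trimmed means of M values 0.22, a median of 0 over all genes 0.29, and GC centring 0.37. The first 2 of these scalings shift every log2 ratio by -0.12 and -0.10. At 4-fold there were 8 lower and 10 higher. Without the ZNF653 to ZNF791 cluster the median was 0.057, and without ZNF146 there were 19 lower and 32 higher, both chosen after seeing the data, as were the cluster sums without their most abundant member. The highest and lowest cluster medians differed by 1.94, and by 1.47 with clusters cut at 2 Mb gaps. Of 40 named members, 28 were past 2-fold and remained so under the 3 scalings, and 23 remained so after GC centring. That centring changed the sign of 4 named members, with ZNF296 at -0.008, ZNF787 at -0.72, ZNF480 at 0.31 and ZNF382 at 0.12. Of the 35 corepressor genes 9 were lower, against 12 with nuclear depth, 10 with either other scaling and 6 after GC centring. The causes were not tested. Depth limits small differences: measured members had a median of 128 counts over both libraries, and 28 of the 73 under 2-fold had an interval without a ratio of 1.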
